A study of Equus caballus with 24 samples.

Results

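Genes of the cell cycle and of DNA replication were read out in the pituitary and the long bone epiphysis of 2 horse breeds, the Debao pony (DP), a short pony of southwestern China, and the taller Mongolian horse (MH). The set was a named list of 47 genes, and 44 of them were found among the 24232 gene symbols and identifiers of the count table by an exact match of the symbol. MKI67, BIRC5 and TYMS, which encode the proliferation antigen Ki-67, survivin and thymidylate synthase, had no entry under these symbols and were not analysed here. Of the 44 genes, 18 act mainly in the G1 and S phases and 26 in G2 and mitosis.

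Tissue came from 12 female horses, 6 of each breed. Juveniles were under 3 years old and adults over 3 years, and no animal had been treated. The 24 libraries form 8 groups of 3 horses, whose names give breed, tissue and stage in turn. The DP groups are DPPJ and DPPA for pituitary and DPLBJ and DPLBA for long bone, with J for juvenile and A for adult. Their MH counterparts are MHPJ, MHPA, MHLBJ and MHLBA. Between 11433200 and 27007300 reads per library were counted on genes. A digit after a group name is the number of the horse in that group.

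A dividing cell makes most of these RNAs in waves. In late G1 the E2F factors switch on the genes that license replication origins, unwind DNA and supply deoxynucleotides, and later MYBL2 and FOXM1 drive the genes that condense, attach and separate the chromosomes. Resting cells hold little of most of them, so the set is commonly read as a gauge of how many cells of a tissue are cycling. In a long bone end, cycling cells can be growth plate chondrocytes, bone-forming cells or blood cell precursors of the marrow. In a mature pituitary few cells divide. In whole tissue, fewer cycling cells and less RNA per cell cannot be told apart.

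The tissue labels were checked against marker genes first. Genes of osteoblasts, 7 of 8 listed and found, summed to between 3700 and 35388 CPM, that is, reads scaled to library size, in the 12 long bone libraries and to at most 2248 CPM in the pituitary libraries. The 5 pituitary hormone genes found of 8 listed (GH, PRL, POMC, TSHB and FSHB) summed to between 10840 and 33939 CPM in 7 pituitary libraries. In the other 5 (MHPJ1, MHPJ2, MHPJ3, DPPA1 and MHPA1) they summed to between 0.127 and 14.5 CPM, and TSHB was at 0 in all 5. These 5 libraries carry the pituitary label but nearly lack its hormone RNA, and all 3 juvenile MH pituitaries are among them. Within the long bone, DPLBJ1 stood apart from DPLBJ2 and DPLBJ3 in the genes described here.

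The levels of the 44 genes separated the breeds in the long bone. Their CPM summed to 847, 4943 and 5095 in DPLBJ1 to DPLBJ3, to 1492, 1759 and 1191 in DPLBA, to between 565 and 786 in MHLBJ and to between 475 and 707 in MHLBA. Every DP library was thus above every MH library in this sum, with DPLBJ1 closest to the MH. DPLBJ2 or DPLBJ3 held the highest long bone level of each of the 44 genes, and MHLBA3 held the lowest level of 27. In RPKM, which are scaled to gene length as well and so allow levels of different genes to be compared, the median gene was at 16.2 in DPLBJ, 6.34 in DPLBA, 1.27 in MHLBJ and 1.04 in MHLBA, each taken over the means of 3 libraries. PCNA, the sliding clamp of the replication fork, led the DP long bone at 72.3 ± 44.5 RPKM (SD, n = 6), ahead of the helicase subunits MCM7 at 63.9 ± 26.7 and MCM6 at 62.8 ± 25.3. In the MH long bone MCM7 led at 42.6 ± 14.2 RPKM, followed by PCNA at 40.8 ± 13.1 and RRM1 at 23.1 ± 5.78. The first 3 genes in the DP and the first 2 in the MH differed by less than their spread.

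**Figure D1:**
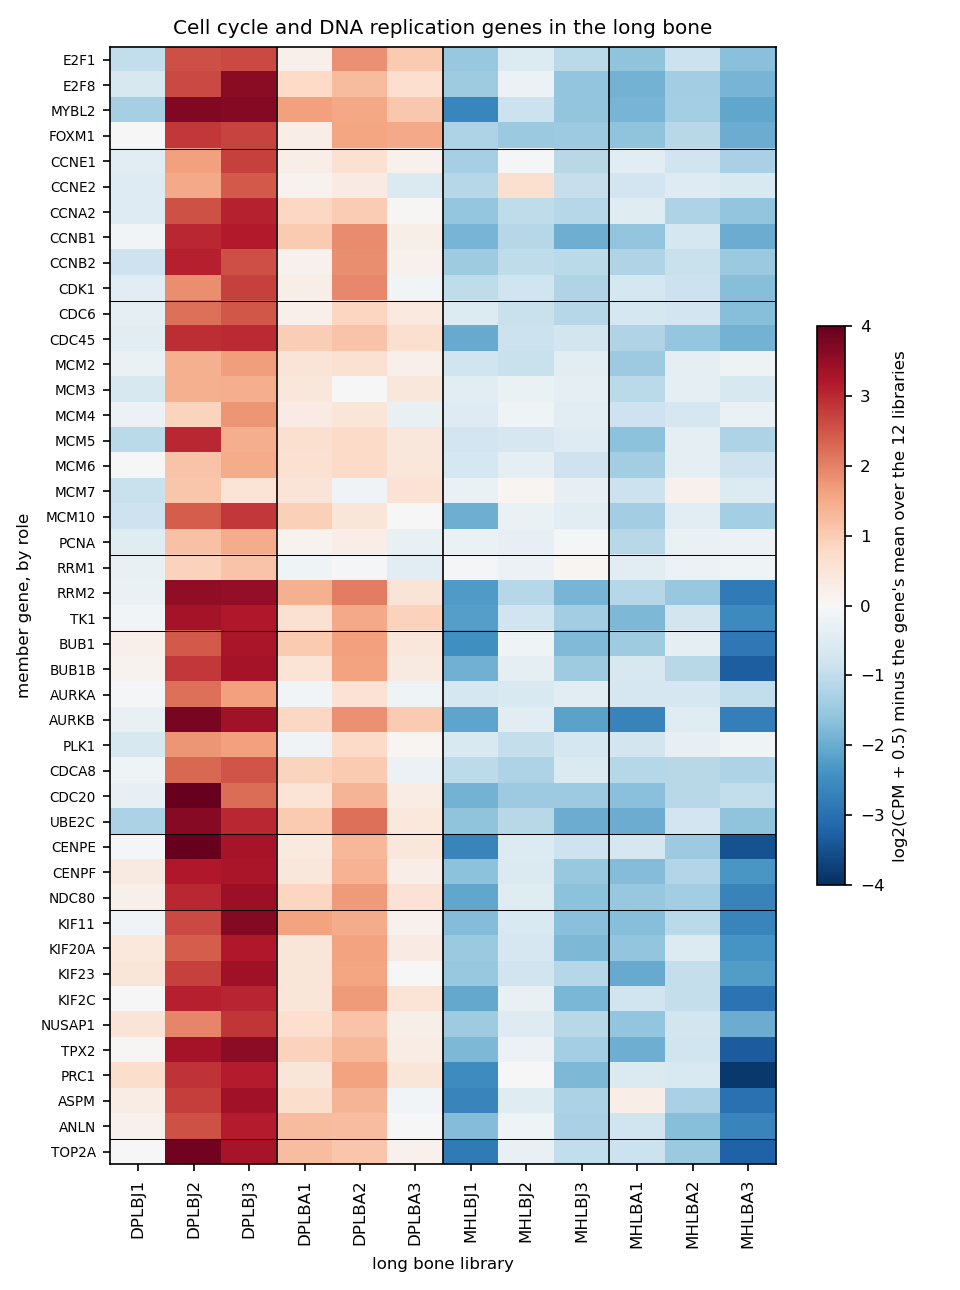
Level of each of the 44 genes (rows, ordered by role and divided by lines) in the 12 long bone libraries (columns), as log2(CPM + 0.5) minus the mean of that gene over the 12 libraries. DPLBJ2 and DPLBJ3 are the highest libraries, the DPLBA libraries come next, DPLBJ1 lies near the middle, and most values of the 6 MH libraries are below the gene's mean.

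The first comparison asked how the breeds differ in the juvenile long bone. DPLBJ exceeded MHLBJ in all 43 genes tested, against 53.4% of all genes. Of the 43, 40 rose, which here means a P under 0.05 before adjustment together with a difference of more than 2-fold in edgeR, as the study set it. Of all 13755 genes tested, 8.33% rose and 5.47% fell. The median log2 fold change of the 43 genes was 3.79, against 0.05 over all genes tested. Every DPLBJ library was above every MHLBJ library for 30 of the 43 genes and for 9.69% of all genes. No gene of the set passed an adjusted p under 0.05 in edgeR, the lowest being 0.136, while 40 passed P under 0.05 unadjusted. In DESeq2 37 passed the adjusted threshold, but the share of all genes that did is not given here. The 3 genes that were not called were MCM7 at a log2 fold change of 0.67 ± 0.49 (SE), RRM1 at 0.79 ± 0.38 and CCNE2 at 1.98 ± 0.88. UBE2C was not tested because too few of these 6 libraries reached the minimum count of the filter.

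In the adult long bone all 44 genes had a fitted level above that of MHLBA in DPLBA, against 48.1% of all genes. Of the 44, 35 rose and none fell, against 10.3% of 14073 genes that rose and 8.03% that fell. The median log2 fold change was 2.35, against -0.03 over all genes tested. The libraries did not overlap for 37 genes, all higher in DPLBA, and for 15.2% of all genes. In edgeR, 7 genes passed an adjusted p under 0.05 with a fold over 2, against 1.74% of all genes in this direction: MYBL2, E2F8, CDC45, CENPF, NDC80, KIF11 and FOXM1. Of these, FOXM1 had only 4, 19 and 2 reads in MHLBA. RRM1 was level between the breeds at 0.01 ± 0.23.

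Over both stages, 41 of 44 genes rose in the DP long bone, and 40 of them passed an adjusted p under 0.05, against 11.4% and 7.72% of 14735 genes. RRM1 (0.39), MCM7 (0.64) and PCNA (0.83) did not reach a fold of 2. The increase was over 4-fold for 34 genes, over 8-fold for 22 and over 16-fold for 4. The 26 G2 and mitosis genes all rose, with a median log2 fold change of 3.16, and 15 of the 18 G1 and S phase genes rose, with a median of 2.05. The lowest DP library was above the highest MH library for 27 genes, against 2.43% of all genes, and for 38 genes when DPLBJ1 was set aside. When DPLBJ2 and DPLBJ3 were both left out, DPLBJ1 was the only juvenile DP library, and the median over the 44 genes went from 3.03 to 1.74. CCNE1, MCM2 and UBE2C were among the genes no longer called in that fit.

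**Figure D2:**
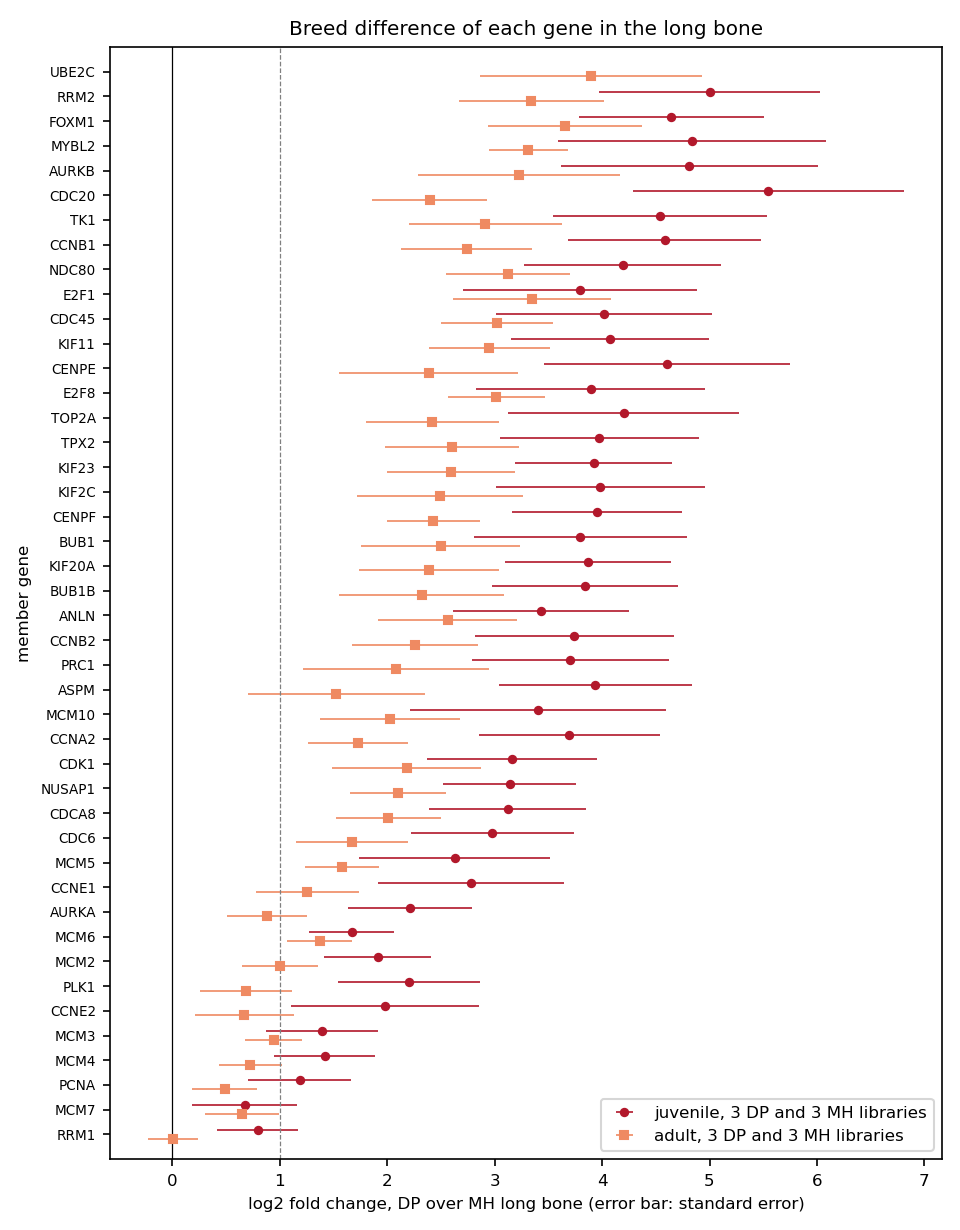
Log2 fold change of DP over MH in the long bone (x axis) for each gene (y axis, sorted by the difference over both stages), with its standard error, in juveniles (circles) and adults (squares). The dashed line marks a fold of 2, which RRM1 and MCM7 do not reach in either stage and PCNA, PLK1, AURKA, MCM3, MCM4 and CCNE2 do not reach in adults, while CDC20, RRM2 and MYBL2 lie farthest to the right in juveniles.

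All 4 transcription factors of the set rose in both stages. MYBL2, the B-Myb factor that switches on late cell cycle genes, was at 3.87, 141 and 137 CPM in DPLBJ, 33.5, 31.4 and 22.4 in DPLBA, 1.29, 5.52 and 3.13 in MHLBJ and 2.5, 3.77 and 2.09 in MHLBA. All adult DP libraries were above all adult MH libraries, whereas the juvenile groups overlapped because DPLBJ1 lay below MHLBJ2. MYBL2 rose by a log2 fold change of 3.31 ± 0.37 in adults (edgeR adjusted p = 0.0206) and of 4.84 ± 1.25 in juveniles (adjusted p = 0.153). E2F1, an activating E2F factor, was at 0.659, 13.2 and 13.8 CPM in DPLBJ, 2.17, 7.79 and 4.25 in DPLBA, 0.304, 1.08 and 0.596 in MHLBJ and 0.259, 0.785 and 0.224 in MHLBA. Adults of the breeds again did not overlap, with a log2 difference of 3.35 ± 0.73, and DPLBJ1 lay within the MH range. FOXM1, the activator of G2 and mitosis genes, was at 2.14, 17.9 and 16.4 CPM in DPLBJ, 2.61, 7.18 and 6.92 in DPLBA, 0.608, 0.421 and 0.447 in MHLBJ and 0.345, 0.710 and 0.149 in MHLBA. Here every DP library, DPLBJ1 included, was above every MH library. FOXM1 rose by 4.64 ± 0.86 in juveniles and 3.65 ± 0.71 in adults (edgeR adjusted p = 0.0461). These values rest on few MH reads, 8, 9 and 9 in MHLBJ and 4, 19 and 2 in MHLBA. FOXM1 was not tested between the MH stages, and passed the filter of the breed comparisons through its DP libraries. E2F8, an E2F repressor, rose by 3.89 ± 1.07 and 3.02 ± 0.45.

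Among the cyclins and their kinase, CDK1, the kinase that starts mitosis, was at 3.13, 17.8 and 33.0 CPM in DPLBJ, 5.53, 18.3 and 4.14 in DPLBA, 1.98, 2.39 and 1.69 in MHLBJ and 2.59, 2.24 and 1.04 in MHLBA. No MH library reached the lowest DP library. CDK1 rose by a log2 fold change of 3.16 ± 0.79 in juveniles and 2.18 ± 0.69 in adults. CCNE1, the cyclin E that carries cells from G1 into S phase, was at 2.72, 13 and 28.4 CPM in DPLBJ, 4.72, 6.06 and 4.42 in DPLBA, 1.22, 3.70 and 1.49 in MHLBJ and 2.76, 2.02 and 1.27 in MHLBA. It rose by 2.78 ± 0.86 in juveniles, where the groups overlapped, and by 1.26 ± 0.48 in adults, where they did not. The mitotic cyclins rose more, CCNB1 by 4.58 ± 0.90 in juveniles and 2.74 ± 0.61 in adults, and CCNA2, which acts in S phase and G2, lay between at 3.69 ± 0.84 and 1.73 ± 0.46; the gap between these cyclins was not tested. CCNE2 was not called in either stage.

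Helicase and licensing genes had the lowest median difference of the classes in both stages. MCM2, a subunit of the replicative helicase, was at 22.3, 73.4 and 86.2 CPM in DPLBJ, 38.3, 41.8 and 31.4 in DPLBA, 15.4, 14.1 and 19.5 in MHLBJ and 9.48, 20.8 and 23.4 in MHLBA. Within each stage the breeds did not overlap. MCM2 rose by 1.91 ± 0.50 in juveniles and by 1.00 ± 0.36 in adults, at the edge of the fold threshold. PCNA was at 45.3, 144 and 181 CPM in DPLBJ, 70.4, 76.6 and 51.8 in DPLBA, 52.6, 51.3 and 61.0 in MHLBJ and 29.0, 52.5 and 54.7 in MHLBA. Its groups overlapped in both stages, DPLBJ1 lying below all of MHLBJ, and it rose in juveniles by 1.19 ± 0.48 but was not called in adults at 0.49 ± 0.30. CDC45 and MCM10, which activate the helicase, rose by 4.02 ± 1.00 and 3.40 ± 1.19 in juveniles and by 3.02 ± 0.52 and 2.03 ± 0.65 in adults. The 10 genes of this class had a median of 1.79 in juveniles and 1.19 in adults.

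Deoxynucleotide supply split by subunit. RRM2, the small subunit of ribonucleotide reductase, which is made in S phase, was at 5.93, 89.9 and 89.6 CPM in DPLBJ, 20.5, 31.6 and 10.5 in DPLBA, 1.14, 3.04 and 1.64 in MHLBJ and 3.02, 2.24 and 0.597 in MHLBA. Every DP library exceeded every MH library. RRM2 rose by a log2 fold change of 5.00 ± 1.03 in juveniles and 3.34 ± 0.68 in adults, and by 4.16 ± 0.66 over both stages (adjusted p = 0.00624). RRM1, the large subunit of the same enzyme, was at 76.0, 176 and 205 CPM in DPLBJ, 82.9, 90.3 and 69.2 in DPLBA, 89.2, 79.0 and 98.4 in MHLBJ and 68.3, 78.5 and 83.7 in MHLBA. Only DPLBJ2 and DPLBJ3 left this band, and RRM1 was not called in any long bone breed comparison. TK1, the S phase thymidine kinase, rose by 4.54 ± 1.00 in juveniles and 2.91 ± 0.71 in adults.

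Genes of mitosis differed in the same direction. AURKB, the kinase of the chromosomal passenger complex, was at 3.46, 67.1 and 48.4 CPM in DPLBJ, 8.01, 16.7 and 9.47 in DPLBA, 0.608, 3.04 and 0.596 in MHLBJ and 0.259, 2.92 and 0.224 in MHLBA. CDC20, which activates the anaphase-promoting complex, was at 2.55, 86.3 and 17.4 CPM in DPLBJ, 5.09, 9.37 and 4.19 in DPLBA, 0.532, 0.889 and 0.894 in MHLBJ and 0.690, 1.27 and 1.42 in MHLBA. TOP2A, the topoisomerase that untangles sister chromatids, was at 47.4, 707 and 471 CPM in DPLBJ, 114, 103 and 54.1 in DPLBA, 6.30, 38.4 and 23.8 in MHLBJ and 26.4, 16.9 and 4.62 in MHLBA. For all 3 genes the lowest DP library lay above the highest MH library, although DPLBJ1 came within a fold of 2 of it. CDC20 gave the largest juvenile difference of the set at 5.55 ± 1.26, with DPLBJ2 far above the other libraries, and 2.40 ± 0.53 in adults. AURKB rose by 4.81 ± 1.20 and 3.23 ± 0.94, and TOP2A by 4.20 ± 1.07 and 2.42 ± 0.62.

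UBE2C, the ubiquitin-conjugating enzyme that works with CDC20, was at 3.60, 8.6 and 2.15 CPM in DPLBA and at 0, 0.673 and 0.149 in MHLBA. The adults did not overlap, and UBE2C had the largest adult difference at 3.90 ± 1.03, on few reads in the MH. In DPLBJ it was at 0.329, 24.3 and 15.4 CPM, so that DPLBJ1 lay below the 0.421 CPM of MHLBJ2. The 3 kinetochore genes CENPE, CENPF and NDC80 and the 9 genes of the spindle and cytokinesis all rose in juveniles, without overlap of the libraries, and all but ASPM also rose in adults. KIF11, the motor that spreads the spindle poles, rose by 4.07 ± 0.92 and 2.95 ± 0.56. AURKA and PLK1, both kinases of mitotic entry, rose in juveniles (2.21 ± 0.58 and 2.20 ± 0.66) and were not called in adults (0.88 ± 0.37 and 0.69 ± 0.43).

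An exact permutation test of the mean log2 CPM of 6 DP against 6 MH long bone libraries, two-sided, was run for the 10 genes named for this purpose in each tissue. For TOP2A, CDK1, RRM2, AURKB and CDC20 this exact test gave p = 0.00216, the smallest that 6 against 6 allows, and an adjusted p of 0.00866 over the 20 tests. MCM2 and MYBL2 reached an exact p = 0.00433 and CCNE1 and E2F1 p = 0.00649, while PCNA gave an exact p of 0.0584. In the pituitary the lowest of the 10 exact p-values was 0.0952, for MCM2.

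**Figure D3:**
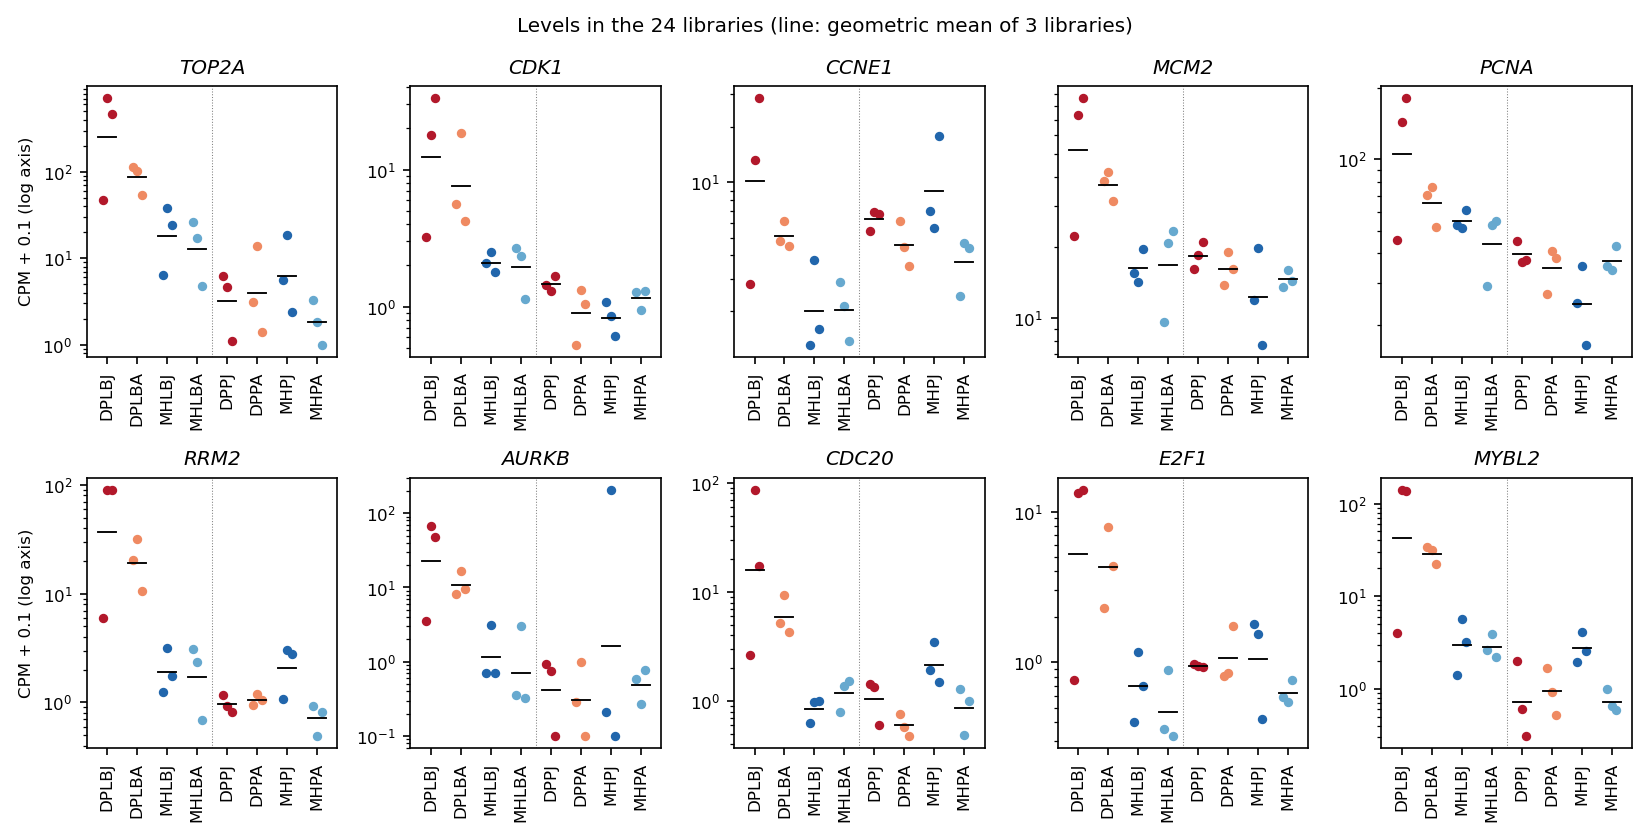
Level of 10 genes in all 24 libraries as CPM + 0.1 on log axes, 3 points a group, with the geometric mean of each group as a line, long bone groups to the left of the dotted line and pituitary groups to the right. The DP long bone groups lie highest for the genes shown except CCNE1, for which MHPJ and DPPJ lie above DPLBA, DPLBJ1 falls well below DPLBJ2 and DPLBJ3, and AURKB reaches 206 CPM in MHPJ2 alone among the pituitary libraries.

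Marker genes of other cells also varied between the long bone libraries, and not all of these lists followed the cell cycle levels. Of 11 erythroid precursor genes listed, 9 were found (GATA1 and KLF1 were not), and they summed to 1918 and 2303 CPM in DPLBJ2 and DPLBJ3, 22.2 in DPLBJ1, 27 to 76.9 in DPLBA and 9.22 to 30.6 in the MH. ALAS2, the heme synthesis enzyme of red cell precursors, was at 0 in DPLBJ1, DPLBA1, DPLBA3 and MHLBJ1. Of 12 neutrophil precursor genes, 6 were found, and they summed to 10.3, 5815 and 1138 CPM in DPLBJ, 821 to 1214 in DPLBA, 8.05 to 79.0 in MHLBJ and 8.5 to 64.0 in MHLBA. PRTN3 was at 0 in MHLBJ1, MHLBA2 and MHLBA3. Of 12 cartilage genes, 11 were found, and they summed to 256, 7145 and 29619 CPM in DPLBJ, 1594 to 30595 in DPLBA, 35.9 to 187 in MHLBJ and 106 to 2310 in MHLBA. Adipocyte genes, 6 of 7 found, summed to 1694 to 4145 CPM in DPLBJ, 2139 to 6446 in DPLBA, 6688 to 8479 in MHLBJ and 1025 to 7389 in MHLBA. Osteoblast genes summed to 10197 to 35388 CPM in DPLBJ and 7355 to 26720 in MHLBJ, and to 21670 to 33877 in DPLBA and 3700 to 17233 in MHLBA. B cell precursor genes, 9 of 10 found, summed to 20.9 to 183 CPM in the DP and 12.9 to 77.6 in the MH. DPLBJ1, the juvenile DP library with the lowest cell cycle levels, had the lowest erythroid, neutrophil and cartilage sums of the DP long bones. Its B cell precursor sum of 24.4 CPM lay within the DP range. Within adults the erythroid sums were 27 to 76.9 CPM in DPLBA and 9.22 to 28.0 in MHLBA, which overlapped. Neither the neutrophil nor the osteoblast sums of the adult breeds overlapped. The part of these cells in the differences was not tested.

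**Figure D4:**
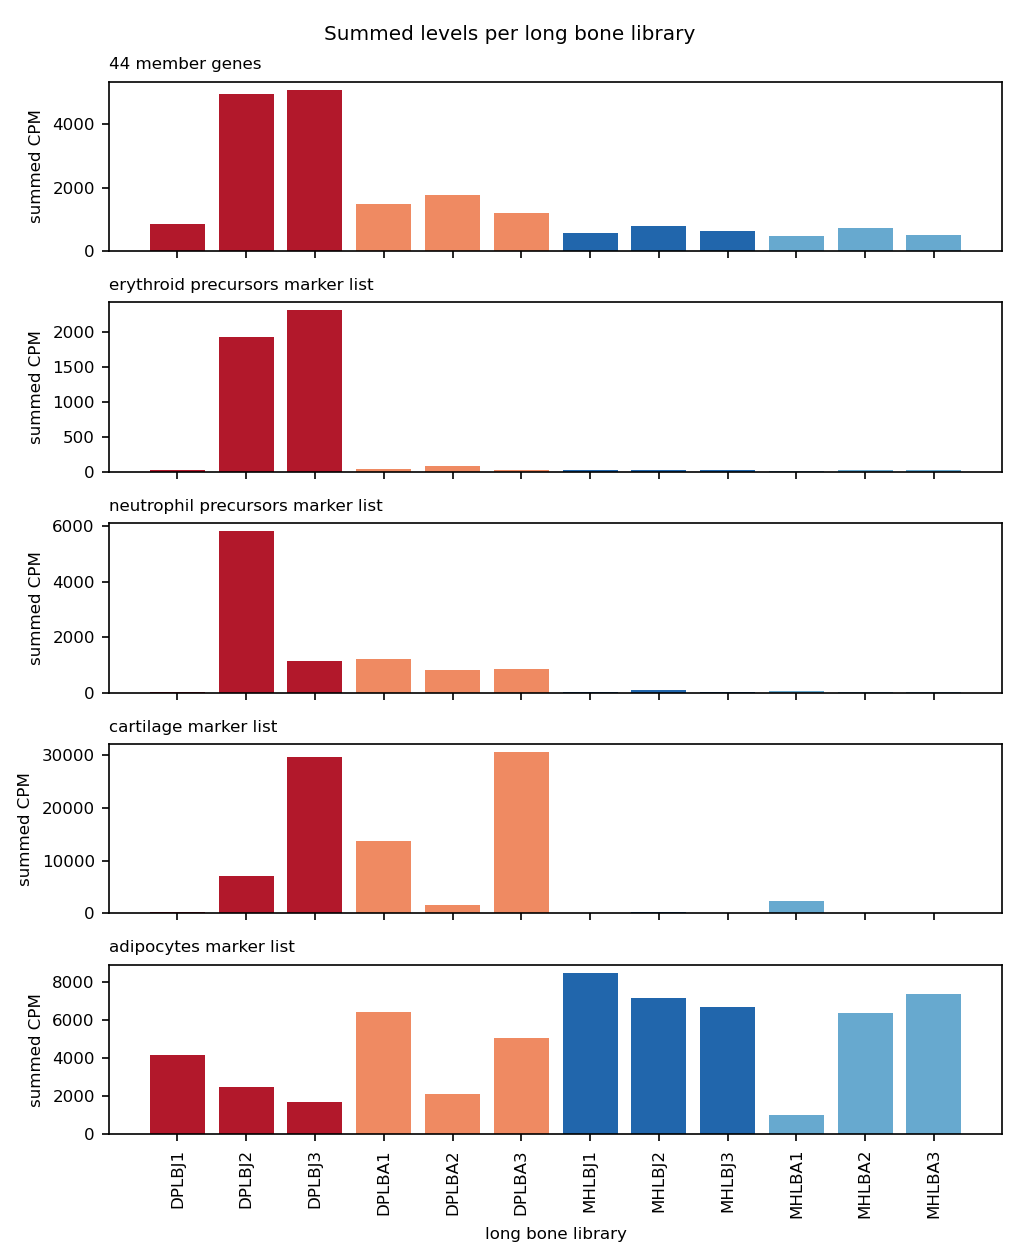
Summed CPM in the 12 long bone libraries (x axis) of the 44 cell cycle genes and of 4 marker lists, 1 panel each, with bars from 0. DPLBJ2 and DPLBJ3, which hold the 2 highest cell cycle sums of 4943 and 5095 CPM, also hold the 2 highest erythroid sums, and the MH libraries lie low in the neutrophil and, apart from MHLBA1, the cartilage panel.

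Other genes of the cycle were read from 2 further lists. Of 40 further S, G2 and M phase genes, 35 were tested in juvenile and 36 in adult long bone, where 27 and 22 rose in the DP and 0 and 1 fell. Of all genes tested, 8.33% rose and 5.47% fell in juveniles, and 10.3% rose and 8.03% fell in adults. Their median log2 fold change was 2.42 in juveniles and 1.44 in adults. DLGAP5, a spindle protein, rose by 5.38 ± 1.03 and 2.69 ± 0.73, and CDT1, which loads the MCM helicase, by 3.28 ± 0.60 in adults. The gene that fell in adults was GMNN, the inhibitor of CDT1, at -1.48 ± 0.60. GMNN was at 40.0, 58.8 and 48.2 CPM in DPLBA and 254, 53.1 and 73.5 in MHLBA, so that MHLBA1 alone lay far above the DP. Without MHLBA1 the difference was -0.40 ± 0.28 and not called, nor was it called without any 1 DPLBA library. Of 25 genes of G1 control and arrest, 23 were tested, with medians of 0.40 in juveniles and -0.02 in adults. In juveniles 4 rose and 1 fell, against 8.33% and 5.47% of all genes. In adults 1 rose, against 10.3% of all genes. CDKN2D, a CDK inhibitor of the INK4 family, was the gene that rose in both stages, by 3.80 ± 1.12 (2.09 ± 0.83 without DPLBJ2) and 1.77 ± 0.50. BTG1, an antiproliferative gene, fell in juveniles by 1.30 on the log2 scale.

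The stage comparison within each breed asked whether the levels fall from juveniles to adults. In the DP long bone all 44 genes had a higher fitted level in DPLBJ than in DPLBA, against 52.4% of all genes, with a median log2 difference of 1.55, and 10 rose, all of them G2 and mitosis genes, against 1.58% of 13866 genes. The stages overlapped for every gene of the set, while they did not for 4.08% of all genes, higher in DPLBJ, and 4.93%, lower. In edgeR the lowest adjusted p was 0.988 and 11 genes had an unadjusted P under 0.05, while DESeq2 gave 0 genes past its adjusted threshold. CENPE, the kinetochore motor, was at 7.90, 165 and 86.8 CPM in DPLBJ and 11.2, 21.8 and 11.6 in DPLBA. The juvenile libraries thus lay on both sides of the adults, and the difference was 2.59 ± 0.91. The other 2 largest were CDC20 at 2.57 ± 1.07 and TOP2A at 2.22 ± 0.85. DPLBJ2 and DPLBJ3 were each above all DPLBA libraries for 43 genes, whereas DPLBJ1 was below all of them for 32. The count of 10 rests on these libraries: it became 42 without DPLBJ1, 0 without DPLBJ2 and 2 without DPLBJ3, and also 0 without DPLBA1 or DPLBA3.

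In the MH long bone none of 42 genes was called between juveniles and adults in edgeR or in DESeq2, none had P under 0.05, and 2.91% of 13899 genes were called in either direction. The median log2 difference was 0.20, with single genes from -0.55 to 0.98. The fitted level was higher in juveniles for 34 of the 42 genes, against 46.7% of all genes. FOXM1 and UBE2C were not tested. Whether the breed difference changed with stage was tested as an interaction. The juvenile difference was the larger for all 43 genes tested in both stages, with a median interaction of 1.29 (43 of 44 above 0, against 54.7% of all genes), yet only CDC20 passed, at 3.10 ± 1.29 (edgeR adjusted p = 0.971), against 2.54% of 14735 genes in this direction. Without DPLBJ1 the count was 24. Leaving out DPLBJ2 and DPLBJ3 together left DPLBJ1 as the only juvenile DP library, and CDC20, E2F1 and MYBL2 changed direction.

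In the pituitary the levels were low and few genes were called between the breeds. The median gene was at 0.650 RPKM in DPPJ, 0.745 in DPPA, 1.32 in MHPJ and 0.740 in MHPA, again over means of 3 libraries. Over both stages 2 of 42 genes rose in the DP and none fell, against 3.11% and 4.76% of 15200 genes, and the median difference was close to 0. These were CCNA2 and TPX2, and neither was called without DPPA2 or without MHPJ3, nor CCNA2 without DPPA3 and TPX2 without MHPJ1. Leaving out MHPJ3 gave 3 other genes that fell. CCNA2 was at 9.98, 7.72 and 8.55 CPM in DPPJ, 2.90, 8.47 and 9.39 in DPPA, 3.67, 3.28 and 2.16 in MHPJ and 4.25, 4.64 and 5.01 in MHPA. It was low in MHPJ and in DPPA1, all hormone-poor libraries, and the breed groups overlapped in adults only. TPX2, which recruits AURKA to the spindle, was at 70.5, 61.8 and 37.0 CPM in DPPJ, 3, 152 and 33.3 in DPPA, 5.31, 19.2 and 1.97 in MHPJ and 2.58, 19.4 and 24.2 in MHPA. It lay at 3 CPM or less in DPPA1, MHPA1 and MHPJ3, and at 19.4 CPM or more in all 7 libraries with hormone RNA. The other hormone-poor libraries were MHPJ1 at 5.31 CPM and MHPJ2 at 19.2 CPM, next to the 19.4 CPM of MHPA2.

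In juvenile pituitaries 3 of 41 genes rose in the DP and 5 fell, against 7.6% and 12.7% of 14603 genes, shares close to that background. The libraries did not overlap for 7 genes higher in DPPJ and 6 lower, against 21.1% and 18.6% of all genes. CCNA2 (1.46 ± 0.32, edgeR adjusted p = 0.0418, a threshold that 4.15% of all genes passed upward), TPX2 (2.60 ± 0.85) and CDC6 (1.30 ± 0.52) rose without overlap of the libraries. CDC6, the origin licensing factor, was at 3.55, 2.56 and 3.34 CPM in DPPJ and 1.64, 1.51 and 0.507 in MHPJ. Those that fell were TK1, CENPE, CDCA8, RRM2 and CENPF. TK1 was at 0.617, 1.77 and 0.334 CPM in DPPJ and at 4.11, 21.9 and 2.28 in MHPJ. CENPE was at 0.411, 0.651 and 0.250 CPM in DPPJ and 1.75, 3.79 and 0.951 in MHPJ, and CDCA8, a passenger complex subunit, at 0.977, 0.465 and 0.125 against 2.41, 1.18 and 2.09. None of these 3 overlapped between the breeds, and the log2 differences were -3.46 ± 1.12, -2.36 ± 0.70 and -1.91 ± 0.75. The count of 8 became 5 without DPPJ1 or MHPJ1, 4 without DPPJ2 and 2 without DPPJ3. Since all MHPJ libraries and no DPPJ library nearly lack hormone RNA, breed and the share of hormone tissue cannot be told apart here.

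AURKB, which overlaps another gene in RefSeq so that reads may be shared, stood out in 1 library. It was at 206 CPM in MHPJ2 and at 0.878 CPM or less in the other 11 pituitary libraries, so that the juvenile breed difference of -7.24 ± 3.24 was not called. MHPJ2 held the highest level of 15 of the 34 pituitary genes with a mean CPM of at least 1 and had an erythroid sum of 142 CPM, against 30.9 or less in the other pituitary libraries. Its neutrophil and adipocyte sums were 84.8 and 170 CPM, against at most 4.53 and 15.7, and the part of these cells in its levels was not tested. In the adult pituitary 1 of 37 genes rose and none fell, against 1.75% and 1.18% of 14376 genes. It was BUB1, the checkpoint kinase, at 1.24, 1.84 and 0.566 CPM in DPPA and 0.348, 0.559 and 0.483 in MHPA. The groups nearly touched at DPPA3 and MHPA2, the difference was 1.40 ± 0.56, and no gene was called without DPPA1, DPPA2, MHPA2 or MHPA3. With the replicate number as a block, 2 genes rose. Without DPPA1 and MHPA1, the adult libraries low in hormone RNA, 4 genes rose, while BUB1 was not called at 1.21. The share of all genes that rose in this fit is not given here. TOP2A was among the 4 at a log2 difference of 2.52. It was at 13.9 and 1.32 CPM in DPPA2 and DPPA3 and at 1.73 and 0.906 in MHPA2 and MHPA3, so that DPPA3 lay below MHPA2.

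Between stages, 8 of 36 genes rose in juvenile against adult MH pituitaries, against 4.5% of 14430 genes. All MHPJ libraries but, of MHPA, only MHPA1 nearly lack hormone RNA, so stage and the share of hormone tissue cannot be told apart here. Groups did not overlap for 8 genes higher in MHPJ, against 7.56% of all genes. TK1 led at 3.08 ± 1.22, followed by BUB1 at 2.46 ± 0.43 and MYBL2 at 2.13 ± 0.53. No adjusted p was below 0.321 in edgeR, where 8 genes had P under 0.05, and 2 genes passed the adjusted threshold in DESeq2. BUB1 was at 2.08, 2.52 and 2.98 CPM in MHPJ, above all of MHPA, and MYBL2 at 1.86, 4.04 and 2.47 CPM against 0.905, 0.559 and 0.483. TK1 overlapped through MHPA1 at 2.58 CPM, the MHPA library that lacks hormone RNA as all MHPJ libraries do. E2F8 was not tested here, at 0.712, 1.77 and 0.127 CPM in MHPJ and 0.209, 0.168 and 0.181 CPM in MHPA, which overlapped. The count became 5 without MHPJ2, 11 without MHPA1 and 2 without either MHPA2 or MHPA3. In the DP pituitary only CENPF was called of 39 genes, at -1.01 ± 0.41, against 2.64% of 14533 genes that fell. It was at 10.2, 6.56 and 4.26 CPM in DPPJ and 13.8, 18.6 and 9.01 in DPPA, an overlap of 1 library, and it was no longer called without DPPA1, DPPA2, DPPJ2 or DPPJ3.

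The breed difference changed with stage for 8 of 42 pituitary genes at P under 0.05 and a fold over 2, 1 upward and 7 downward, against 6.8% and 8.87% of 15200 genes. Upward was CDC6 at 1.99 ± 0.71, and the largest downward were TK1 at -3.72 ± 1.53, CDCA8 at -3.22 ± 1.39 and CENPE at -3.08 ± 0.89. No gene of the set passed an adjusted p under 0.05 in edgeR, and 3 did in DESeq2. The count of 8 became 5 without MHPA3.

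ANLN, the actin-binding protein anillin of the cleavage furrow, followed another pattern, and its reads too may be shared with an overlapping gene. In the pituitary it was at 23.0, 75.3 and 26.2 CPM in DPPJ, 263, 55.5 and 27.5 in DPPA, 417, 7.15 and 250.5 in MHPJ and 1071, 9.78 and 16.2 in MHPA. The highest 4 libraries were MHPA1, MHPJ1, DPPA1 and MHPJ3, all low in hormone RNA, and in these the neural lobe and glia genes, 8 of 9 found, summed to between 7703 and 20542 CPM. MHPJ2, also low in hormone RNA and with a neural lobe and glia sum of 6798 CPM, had the lowest ANLN at 7.15 CPM. Anillin is also known from myelin-forming glia. The part of glia in the ANLN level was not tested.

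**Figure D5:**
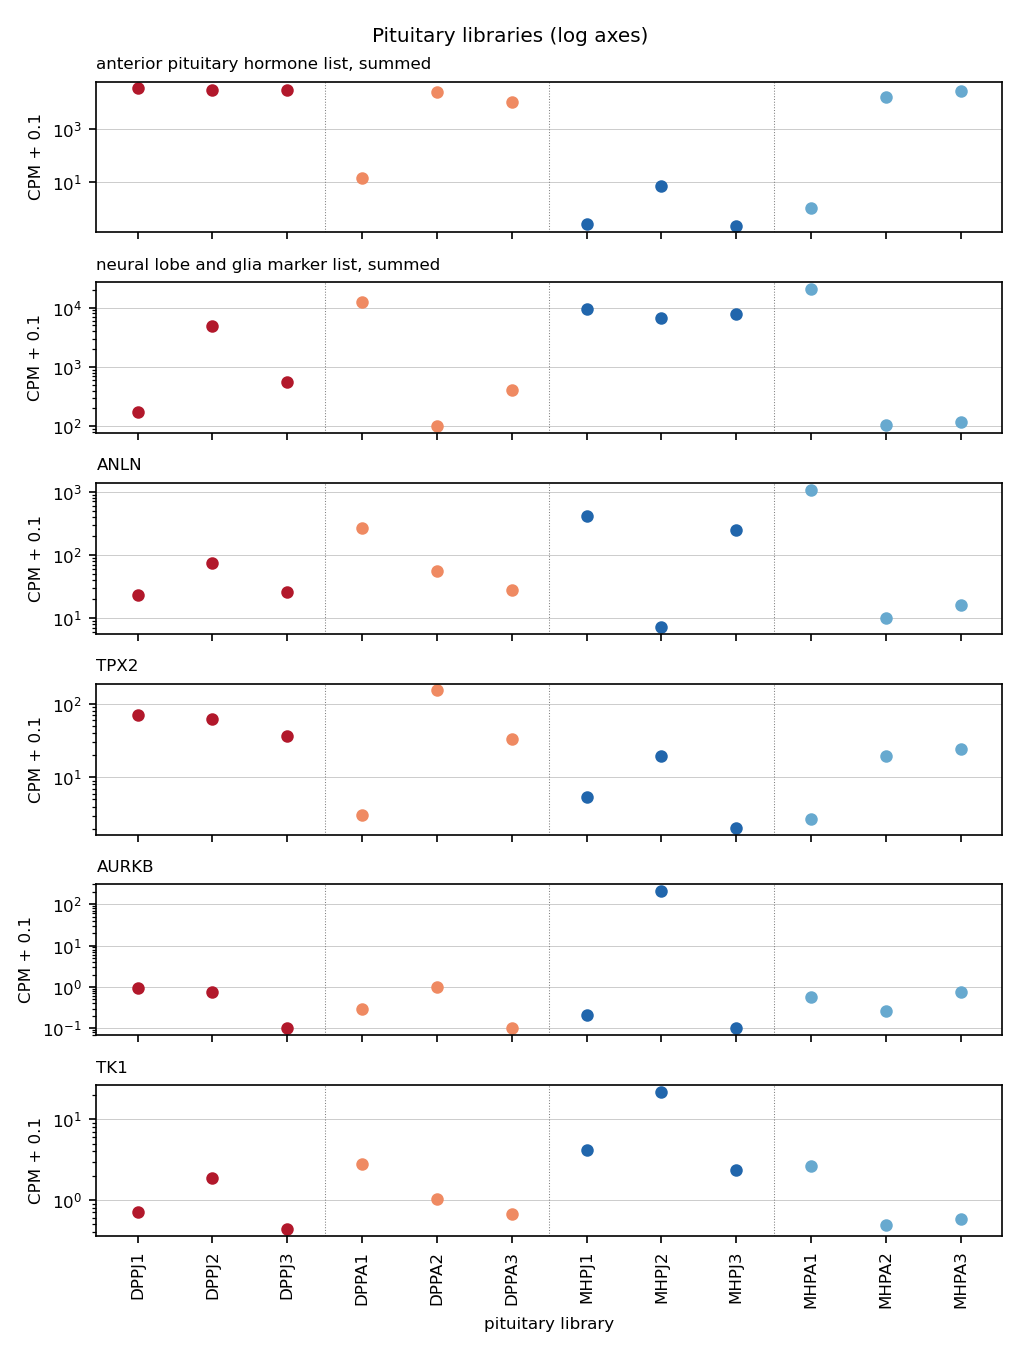
Summed CPM of the hormone and of the neural lobe and glia lists, and CPM of ANLN, TPX2, AURKB and TK1, in the 12 pituitary libraries (x axis), each as CPM + 0.1 on a log axis. The 5 libraries with the lowest hormone sums include the 4 with the highest ANLN, and AURKB and TK1 peak in MHPJ2.

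The tissue comparison asked how the pituitary and the long bone differ within each breed, averaged over stages. Both tissues came from the same 12 horses, but the labels do not say which libraries share a horse, and the fit treats the 24 libraries as independent. In the DP 39 of 44 genes were lower in the pituitary and none higher, all 39 also at an adjusted p under 0.05 in edgeR, against 19.8% of 16131 genes that fell (18.9% by the adjusted threshold) and 20.6% that rose. The median log2 difference was -4.00, against 0.04 over all genes. CENPE (-5.85 ± 0.75), MYBL2 (-5.84 ± 0.73) and AURKB (-5.65 ± 1.49) differed most. MYBL2 had its highest DP pituitary level at 1.90 CPM, below the 3.87 CPM of DPLBJ1, the lowest DP long bone library. The tissues did not overlap for 32 genes, all higher in the long bone, against 12% of all genes.

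In the MH 2 of 44 genes rose and 10 fell in the pituitary, against 21.7% and 14.4% of 16131 genes, and the median was -0.69. TOP2A (-2.22 ± 0.73), ASPM (-2.21 ± 0.65) and E2F8 (-1.90 ± 0.76) fell most. ASPM, a spindle pole protein, ranged from 1.49 to 18.3 CPM in the 6 MH long bone libraries and from 0.423 to 4.63 in the 6 MH pituitaries, which overlapped. ANLN rose by 6.15 ± 1.19, with its highest levels in the hormone-poor MHPA1, MHPJ1 and MHPJ3. MHPA2 and MHPA3, which hold hormone RNA, were also above the highest MH long bone level, at 9.78 and 16.2 against 8.85 CPM. The hormone-poor MHPJ2 was below it at 7.15 CPM. CCNE1 rose by 1.56 ± 0.45. CCNE1 was at 6.90, 5.55 and 17.7 CPM in MHPJ and 2.30, 4.58 and 4.29 in MHPA, and MHPA1 at 2.30 CPM lay within the MH long bone range of 1.22 to 3.70. The count of 12 became 4 without MHLBJ2 and 17 without MHPJ2.

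The breed difference was larger in the long bone than in the pituitary for all 44 genes, against 52.7% of all genes, and the interaction passed for 39, against 12.9% of 16131 genes in this direction. Of these 39, 32 passed an adjusted p under 0.05 in edgeR, where 6.35% of all genes did. The median interaction was 3.07, against 0.06 over all genes. AURKB (7.71 ± 1.98), TK1 (5.27 ± 1.06) and ANLN (5.09 ± 1.43) were largest, each with the single high or hormone-poor MH pituitary libraries given above in the contrast. RRM2 was at 4.57 ± 0.76 and CDC20 at 4.86 ± 0.82, and both had their highest pituitary level in MHPJ2, at 2.95 and 3.37 CPM. The count was lower without DPLBJ2 and DPLBJ3, which leaves DPLBJ1 as the only juvenile DP long bone library. In adults alone it was 11. In adults without the pituitaries low in hormone RNA it was 2, with 2 libraries left in each adult pituitary group and a median of 1.50. The share of all genes called in these contrasts is not given here.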

How the data were processed

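Horse pituitary and long bone epiphysis RNA, depleted of ribosomal RNA, was sequenced by the authors from directional libraries. Per the labels, the submitters' processing notes name bcl2fastq, TopHat2 and edgeR; the methods name trimming that removed reads under 30 bp, mapping to the EquCab 3.0 genome, and Salmon on reference cDNA for transcript values. Which of these tools made the deposited counts, the annotation and the use of strand in counting are not given in the sources used here. The authors deposited whole read counts of 24232 genes and RPKM values, scaled by gene length and library size.

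The counts were fitted with edgeR 4.0.16 in R 4.3.3: filterByExpr with a minimum count of 10, TMM factors, and the quasi-likelihood test, with Benjamini-Hochberg adjustment over all genes tested. Pairwise comparisons used the 6 libraries compared, the breed comparisons over both stages 12, and the tissue comparisons 24. A gene was called at P under 0.05 and a fold over 2. Fold changes are DP over MH, juvenile over adult and pituitary over long bone. CPM use TMM factors of all 24 libraries on 1 scale. SE is the log2 fold change divided by the root of the F statistic. The procedure was tested on simulated data. Alternatives were DESeq2 1.42.0, limma 3.58.1 on log2(RPKM + 1) and log2(RPKM + 0.1), no filter, no TMM, a replicate block, and leaving libraries out. Counts under the alternatives are given without the share of all genes called.

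The members and all gene lists were chosen with earlier results of these data known. Genes were named by a rule: MKI67, TOP2A, CDK1, CCNE1, MCM2, PCNA, RRM2, AURKB, BIRC5, CDC20, E2F1 and MYBL2, up to 3 called genes a direction with the largest change in each comparison, and genes not found or not tested. Other names were chosen after their values were seen. The labels give no pairing of horses between the breeds. Same-numbered DP and MH libraries deviated together only in adult pituitaries (correlations of 0.64, 0.53 and 0.37). There DPPA1 and MHPA1, the adult libraries low in hormone RNA, share a number. In the pituitary comparisons FOXM1 and UBE2C were not tested in any, and MCM10, CDC45, E2F8, AURKB, CCNB1, NDC80, KIF2C or KIF20A not in some. A RefSeq table of another assembly placed 22 of the 44 genes over another gene, TPX2, ANLN and AURKB among them, so their reads may be shared. The smallest exact p of 3 against 3 libraries is 0.1.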

Additional observations from a re-analysis of the deposited data

Results flagged for a closer look

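Differences of a difference were tested as interaction terms in edgeR, and those that passed P under 0.05 with a fold over 2 are listed here. The breed difference was larger in the long bone than in the pituitary for 39 of 44 genes, against 12.9% of all genes. That count was lower without DPLBJ2 and DPLBJ3 and in adults alone, and lowest in adults without the hormone-poor pituitaries. The breed difference changed with stage for 8 of 42 genes in the pituitary, a share of 19% against 15.7% of all genes. All juvenile Mongolian horse libraries there were low in hormone RNA. In the long bone it changed with stage for 1 of 44 genes, CDC20, against 4.17% of all genes. None of the last 2 sets passed an adjusted p under 0.05, while 32 genes of the first did.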

How the results depend on the processing

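The breed counts of the long bone kept within 1.5 times under every alternative run, ranging with 1 library left out from 35 to 44 called genes in juveniles, 29 to 35 in adults and 39 to 42 over both stages, and the DP tissue count from 38 to 40 did likewise. The MH long bone stage count stayed at 0. Breed by tissue moved by over 1.5 times only under alternatives chosen after seeing the data. The other counts moved, and the cause was not tested. DESeq2 gave 0 for adult pituitary breed, 27 for DP long bone stage, 4 for both-stage pituitary breed and 3 for long bone breed by stage. Without the filter these were 0 for adult pituitary breed and DP pituitary stage, 26 for DP long bone stage and 2 for long bone breed by stage. Without TMM they were 0 for adult pituitary breed and DP pituitary stage, 1 for both-stage pituitary breed and 7 for MH tissue. Limma on log2(RPKM + 1) gave 3 for juvenile pituitary breed, 1 for MH pituitary stage, 1 for both-stage pituitary breed, 4 for pituitary breed by stage, 3 for MH tissue, and 0 for adult pituitary breed, DP stage in both tissues and long bone breed by stage. With + 0.1 it gave 4 for MH pituitary stage, 1 for both-stage pituitary breed, 5 for MH tissue and the same 0 counts. The replicate block gave 5 for juvenile and 2 for adult pituitary breed, 3 for MH pituitary stage, 2 for DP long bone stage and 0 for long bone breed by stage; it moved no other count by over 1.5 times. Within a tissue, same-numbered samples of different groups shared only a number. Between tissues, where numbers may or may not mark a horse, the block gave 38 for DP tissue, 9 for MH tissue and 36 for breed by tissue. Limma on log2(RPKM + 1) also lowered the median log2 difference, to 2.23 in juvenile, 1.48 in adult and 1.88 in both-stage long bone breed. All 12 pituitaries in the fit gave 2 for adult breed.

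Leaving out 1 library gave 2 to 9 for juvenile and 0 to 3 for adult pituitary breed, 2 to 11 for MH and 0 to 1 for DP pituitary stage, 0 to 42 for DP and 0 for MH long bone stage, 0 to 3 for both-stage pituitary breed, 5 to 11 for pituitary and 0 to 24 for long bone breed by stage, 4 to 17 for MH tissue and 36 to 40 for breed by tissue. AURKB in MH tissue ranged from -2.95 without MHPJ2 to 3.21. Alternatives chosen after seeing the data gave, without DPLBJ2 and DPLBJ3, 18 for breed by tissue (median 1.71) and 6 for long bone breed by stage, where CDC20 turned to -0.68, E2F1 to -3.36 and MYBL2 to -3.09. Without DPLBJ1 and MHLBA1 the latter count was 23. Without the hormone-poor pituitaries, adults gave 4 for pituitary breed and 2 for breed by tissue, where TOP2A turned to -0.078, and adults with all libraries gave 11. UBE2C and FOXM1 rest on few reads in the MH long bone, and low counts left pituitary genes untested.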
